A study of Rattus norvegicus with 8 samples.

Results

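Catecholamine synthesis and vesicle loading were represented by 9 of the 18314 RefSeq records in the files, picked by record identifier: Th (NM_012740), Ddc (NM_012545), Dbh (NM_013158), Gch1 (NM_024356), Qdpr (NM_022390), Pts (NM_017220), Pnmt (NM_031526), Slc18a2 (NM_013031) and Slc18a1 (NM_013152). All 9 records were listed in every library, and 8 of them passed the filter on low counts. The record of Pnmt did not. Right stellate ganglia had been taken from 4 rats of the spontaneously hypertensive strain (SHR) and from 4 Wistar rats, all 16 weeks old and not given any treatment that the labels name. The methods of the study state that the rats were male, that each library held RNA from 1 ganglion of 1 rat, and that the cDNA was amplified because so little RNA was obtained. Wistar, the progenitor of the WKY strain, served as the normotensive group, so that hypertension and genetic background cannot be told apart in this comparison. Each library held between 25820299 and 35509074 estimated counts. Replicate 1 of each strain stood apart from the other rats of its strain in several of these genes, and values without these libraries are given where they move a result.

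The stellate ganglion is the main sympathetic ganglion of the heart, and most of its neurons release noradrenaline. Tyrosine hydroxylase (Th) turns tyrosine into L-DOPA in the rate-limiting step, with tetrahydrobiopterin as cofactor, and the decarboxylase Ddc turns L-DOPA into dopamine. Vesicular monoamine transporters, driven by a proton pump, load dopamine into vesicles, where dopamine beta-hydroxylase (Dbh) makes noradrenaline from it. Pnmt would carry the product on to adrenaline, as it does in chromaffin cells of the adrenal medulla.

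The genes for these steps did not change alike in SHR. Slc18a1, which encodes the vesicular transporter VMAT1, was 3.06-fold lower in SHR and was the only one of the 8 tested member records past the threshold, an adjusted p under 0.05 from edgeR's quasi-likelihood test over 13659 records. Ddc fell to 0.492 times its Wistar level when the 3 Ddc records of the files were summed, whereas the member record of Ddc, which held only 0.381% to 2.92% of the Ddc counts, did not. The abundant records of Th, Dbh and Slc18a2 were 1.10-fold, 1.21-fold and 1.15-fold lower in SHR without passing. Over all records 2.85% passed, with 1.69% lower and 1.16% higher in SHR.

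The promoters of the genes with the highest levels are shown because Th, Slc18a2 and Dbh carry the noradrenergic phenotype of these ganglia, and to place the cyclic AMP response element (CRE) in them. The sequences are from RefSeq on build GRCr8, whereas the reads were mapped to transcripts of rn6. Each runs 5′ to 3′ from 250 bases before the gene start to 50 bases after it. Capitals mark the CRE, TGACGTCA, and its part site TGACG, on either strand. The windows lie at chr1:207508169-207508468 on the minus strand for Th, at chr1:268399771-268400070 on the plus strand for Slc18a2 and at chr3:30886078-30886377 on the plus strand for Dbh.
Th: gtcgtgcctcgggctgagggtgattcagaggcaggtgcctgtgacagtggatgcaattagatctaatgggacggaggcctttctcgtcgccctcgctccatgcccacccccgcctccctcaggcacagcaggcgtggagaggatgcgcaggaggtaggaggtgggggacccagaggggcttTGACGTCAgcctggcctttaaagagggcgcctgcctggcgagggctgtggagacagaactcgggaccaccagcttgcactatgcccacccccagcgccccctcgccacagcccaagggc
Slc18a2: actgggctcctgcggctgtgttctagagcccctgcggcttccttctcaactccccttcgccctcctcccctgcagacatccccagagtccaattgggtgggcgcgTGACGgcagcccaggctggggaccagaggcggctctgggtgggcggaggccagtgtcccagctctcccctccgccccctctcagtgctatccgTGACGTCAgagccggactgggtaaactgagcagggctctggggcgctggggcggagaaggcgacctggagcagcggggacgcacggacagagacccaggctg
Dbh: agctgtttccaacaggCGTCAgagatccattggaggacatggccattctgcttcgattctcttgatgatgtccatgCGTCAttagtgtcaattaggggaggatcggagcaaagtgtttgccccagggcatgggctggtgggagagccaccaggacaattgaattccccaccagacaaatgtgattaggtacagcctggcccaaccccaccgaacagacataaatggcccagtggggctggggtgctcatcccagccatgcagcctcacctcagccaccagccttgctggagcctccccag

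The full CRE began 69 bases before the start of Th and 52 bases before the start of Slc18a2. It was in 2 of the 9 windows listed for these genes and in 1.83% of all 33469 promoter windows. TGACG, which every full CRE contains, was in 4 of the 9 windows, those of Th, Slc18a2, Dbh and Gch1, and in 21.2% of all windows. The AP-1 motif TGANTCA was in 2 of the 9 and in 7.33% of all, the E-box CANNTG in 8 and in 72.1%, the GC box GGGCGG in 3 and in 33.1%, and TATAAA in 1 and in 14.2%. The palindromic glucocorticoid response element was in 0 of the 9 and in 0.0149% of all windows. All motifs were searched on both strands, and a match is only a match of letters. Ddc had 3 windows, which the table does not tie to its records, and Pnmt and Slc18a1 had none.

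TPM, the share of transcripts that Salmon computed per effective length, allows the levels of different genes to be set side by side. Dbh was the most abundant of the 9 records, with 5777 ± 683 TPM (SD, n = 4) in Wistar and 4753 ± 831 TPM (SD, n = 4) in SHR, and it ranked between the 13th and the 29th of all records in each library. Th followed with 2220 ± 122 TPM in Wistar and 2013 ± 170 TPM in SHR (SD, n = 4 per strain), and Slc18a2 with 891 ± 85.3 and 775 ± 192 TPM. In all 8 libraries Dbh exceeded Th and Th exceeded Slc18a2, with no overlap of their ranges.

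Below these came Qdpr, with 368 ± 84.8 TPM in Wistar and 206 ± 67.8 TPM in SHR, and the 3 Ddc records together, with 219 ± 12.0 and 108 ± 13.7 TPM (SD, n = 4 per strain). Qdpr exceeded Ddc in 8 of 8 libraries, but the ranges overlapped across libraries. Pts had 35.4 ± 2.35 TPM in Wistar and 41.7 ± 5.0 TPM in SHR. Gch1, whose product makes the first committed step of tetrahydrobiopterin synthesis, had only 6.95 ± 1.30 TPM in Wistar and 9.16 ± 3.39 TPM in SHR. The order of Gch1 and Slc18a1 differed between the strains. In SHR Gch1, between 6.83 and 14.1 TPM, was above Slc18a1, between 2.34 and 4.30 TPM, in all 4 libraries with no overlap, whereas in Wistar their ranges overlapped and Slc18a1, between 6.15 and 16.2 TPM, was the higher in 3 of 4. The member record of Ddc, with 2.09 ± 0.889 TPM in Wistar and 2.37 ± 0.867 TPM in SHR, was below Slc18a1 in 7 of 8 libraries. Pnmt was lowest, between 0.166 and 0.769 TPM. The 9 records together held 0.931% ± 0.0525 of all TPM in Wistar and 0.780% ± 0.112 in SHR (SD, n = 4 per strain), and the strains overlapped.

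**Figure D1:**
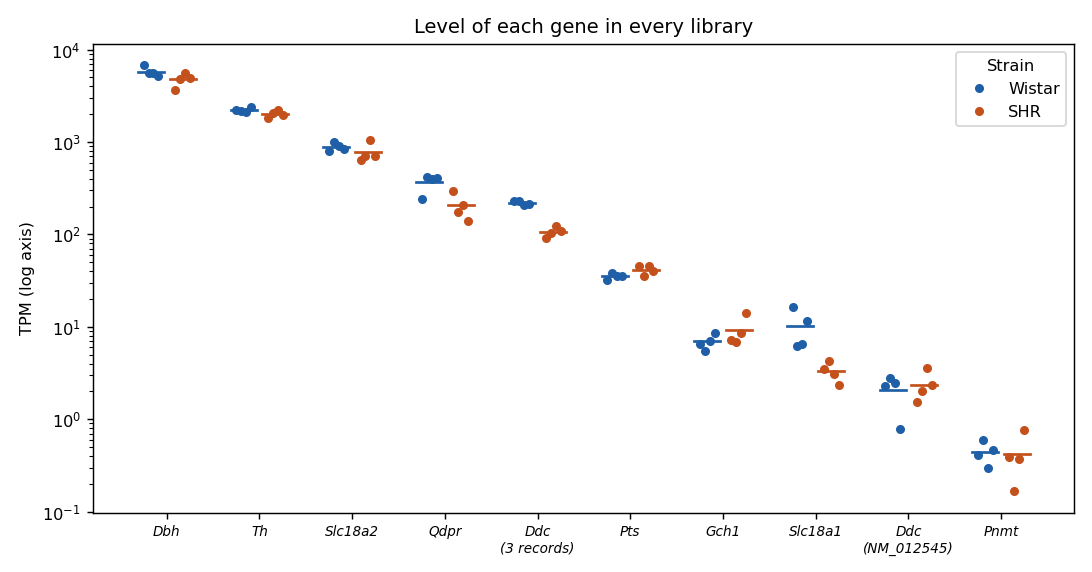
TPM on a log axis for each of the 9 genes in every library, with Ddc shown both as the sum of its 3 records and as the member record alone. Points are libraries (4 Wistar, 4 SHR) and lines are strain means; levels run from 6766 TPM for Dbh in Wistar replicate 1 to 0.166 TPM for Pnmt in SHR replicate 2.

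Differences between strains were measured on the estimated counts. A normalised count here is the estimated count scaled between libraries by edgeR's TMM factors. Th had 110665, 99760, 98946 and 115583 normalised counts in Wistar replicates 1 to 4 and 91512, 104821, 97030 and 93515 in SHR replicates 1 to 4. The strains overlapped, with SHR replicate 2 above Wistar replicates 2 and 3. Its log2 fold change was -0.14 (SE 0.087, edgeR adjusted p = 0.459).

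Dbh gave 449800, 344002, 338890 and 329937 normalised counts in the Wistar rats and 241228, 323311, 325679 and 315337 in the SHR. The strains did not overlap on this scale, with Wistar replicate 1 well above its strain and SHR replicate 1 well below, whereas on the TPM scale SHR replicate 3 (5651 TPM) lay above Wistar replicates 2, 3 and 4 (5596, 5554 and 5194 TPM). The log2 fold change was -0.28 (SE 0.133, edgeR adjusted p = 0.324), and without both libraries numbered 1 it was -0.08 (edgeR adjusted p = 0.536). Fat cell markers also set these libraries apart. The summed TPM of the adipocyte list was 73.6 in Wistar replicate 1 and 202 in SHR replicate 1, against 13.4 to 38.6 in the other 6 libraries, and the part of this in the Dbh values was not tested.

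The aromatic amino acid decarboxylase Ddc was listed under 3 records, and in 8 of 8 libraries their counts added up to within 0.1 of a whole number, as they would if reads were divided among these records alone. The division is Salmon's estimate, so that the single records are less certain than their sum. Record NM_001270852 held 74.6% ± 0.592 of the Ddc counts in Wistar and 71.6% ± 2.38 in SHR, NM_001270853 held 24.4% ± 0.406 and 26.2% ± 2.35, and the member record NM_012545 held 0.965% ± 0.403 and 2.19% ± 0.518 (SD, n = 4 per strain).

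The member record of Ddc gave 304, 335, 292 and 96.7 normalised counts in the Wistar rats and 198, 267, 394 and 293 in the SHR. The strains overlapped, and its log2 fold change of 0.17 (SE 0.352, edgeR adjusted p = 0.850) was smaller than its standard error. The main record NM_001270852 gave 22203, 20105, 17783 and 19160 normalised counts in the Wistar rats and 8196, 10153, 9643 and 9413 in the SHR, so that every SHR library was below every Wistar library. It fell by 1.08 on the log2 scale (SE 0.0998, edgeR adjusted p = 0.000306). Record NM_001270853 fell by 0.92 (SE 0.11, edgeR adjusted p = 0.00162), from between 5914 and 7433 normalised counts in Wistar to between 3086 and 3977 in SHR.

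**Figure D2:**
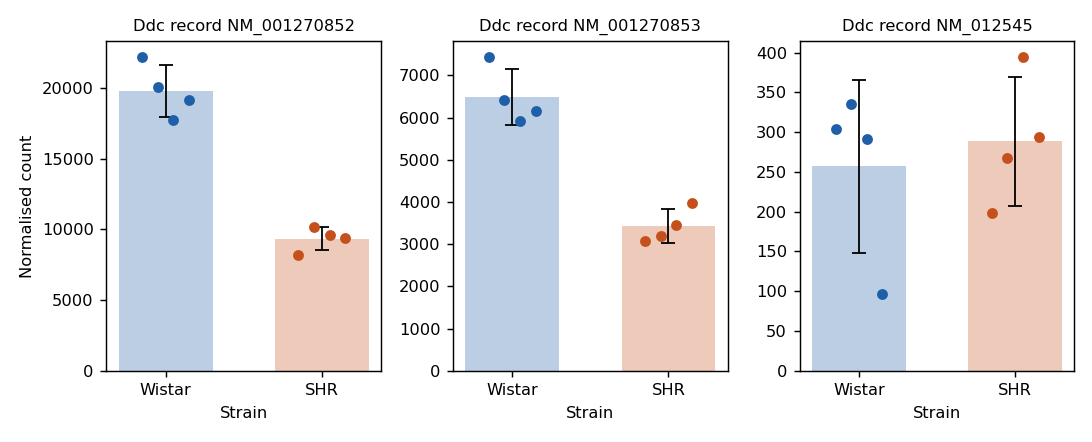
Normalised counts of the 3 Ddc records in each library, on separate vertical axes that start at 0. Bars are strain means, whiskers the SD and points the 4 rats; the first pair of records lay without overlap below Wistar in SHR, and the member record NM_012545 overlapped.

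Summed over its 3 records, Ddc gave 29940, 26867, 23988 and 25424 normalised counts in the Wistar rats and 11480, 13610, 13493 and 13683 in the SHR. All SHR values were below all Wistar values, and the means were 26555 ± 2544 in Wistar and 13066 ± 1061 in SHR (SD, n = 4 per strain). In the fit on counts summed by gene the log2 fold change was -1.02 (SE 0.0912, edgeR adjusted p = 0.000190), where 2.95% of 13106 genes passed, with 1.24% of all genes higher and 1.7% lower in SHR. The fall was past the threshold in all 15 alternatives of this fit, between -1.06 and -0.91. In bulk tissue, fewer cells of a type and less RNA per cell cannot be told apart.

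Slc18a1 encodes VMAT1, the monoamine transporter of chromaffin cells and of the small intensely fluorescent cells of sympathetic ganglia. It gave 1040, 362, 382 and 700 normalised counts in the Wistar rats and 220, 280, 168 and 145 in the SHR. The strains did not overlap, but the Wistar rats spread widely, with replicates 1 and 4 high and replicates 2 and 3 nearer to SHR. Slc18a1 fell by 1.61 on the log2 scale (SE 0.355, edgeR adjusted p = 0.0422). The adjusted p ranged from 5.7e-05 to 0.144 over the 18 alternatives. When single libraries were omitted it passed in 2 of 8 fits, and the others, without Wistar replicate 1, Wistar replicate 4 or any of the 4 SHR, gave an adjusted p between 0.0568 and 0.128. Without both libraries numbered 1 the log2 fold change was -1.30 (edgeR adjusted p = 0.047).

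Slc18a2, which encodes VMAT2, the transporter of noradrenergic neurons, gave 56445, 63764, 57738 and 55032 normalised counts in the Wistar rats and 43133, 49658, 62438 and 47620 in the SHR. SHR replicates 1, 2 and 4 lay below all Wistar rats and SHR replicate 3 lay among them. The log2 fold change was -0.20 (SE 0.117, edgeR adjusted p = 0.421). Among the 8 tested members, 1 was higher and 2 were lower in SHR without overlap of the strains, against 4.62% higher and 5.97% lower among the 13659 records.

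**Figure D3:**
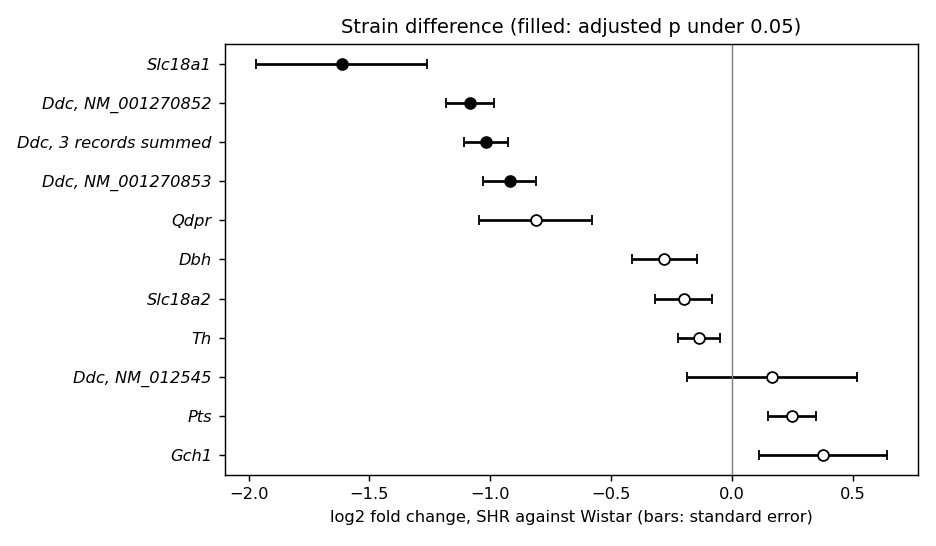
Log2 fold change of SHR against Wistar from edgeR's quasi-likelihood test for the tested records of the set, the other Ddc records and the Ddc sum; whiskers are standard errors and filled points passed an adjusted p of 0.05. Slc18a1 and the abundant Ddc records lie between -1.61 and -0.92, and the other members between -0.81 and 0.38.

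The enzymes of tetrahydrobiopterin differed among themselves. Gch1, GTP cyclohydrolase, gave 122, 93.7, 123 and 155 normalised counts in the Wistar rats and 132, 127, 134 and 248 in the SHR. Only SHR replicate 4 was above the Wistar range, and the log2 fold change was 0.38 (SE 0.265, edgeR adjusted p = 0.498). Pts, the synthase of the next step, gave 818, 867, 806 and 842 normalised counts in the Wistar rats and 1111, 907, 973 and 971 in the SHR. All SHR libraries were above all Wistar libraries, by a log2 fold change of 0.25 (SE 0.0986, edgeR adjusted p = 0.238), which did not pass. On the TPM scale the strains overlapped, with SHR replicate 2 (35.4 TPM) below Wistar replicate 2 (37.9 TPM). The Pts counts were not whole numbers, so that part of them was assigned by Salmon's estimate, and the record that shares these reads was not identified here.

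Qdpr, dihydropteridine reductase, which regenerates the cofactor after each round of hydroxylation, gave 7971, 12804, 12119 and 12719 normalised counts in the Wistar rats and 9711, 5922, 5944 and 4392 in the SHR. Replicate 1 of each strain was the exception, with the Wistar rat below the SHR rat of that number, and the other rats were apart. The log2 fold change was -0.81 (SE 0.235, edgeR adjusted p = 0.112). The call depended on the tool and on these libraries. DESeq2 gave an adjusted p of 0.0103, and without SHR replicate 1 edgeR gave 0.0173. Without both libraries numbered 1, a choice made after these values were seen, the log2 fold change was -1.22 (edgeR adjusted p = 0.00111), in a fit where 7.79% of the records passed, 2.21% higher and 5.58% lower in SHR.

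Pnmt was near the limit of detection, with 10, 12, 7 and 11 counts as deposited in Wistar and 9, 3, 8 and 18 in SHR. The strains overlapped, and with no filter on low counts the log2 fold change was -0.06 (SE 0.563, edgeR adjusted p = 0.977). No difference in Pnmt was detectable at this depth.

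Ratios of TPM within a library do not depend on scaling between libraries, and 8 were compared with exact two-sided permutation tests of 4 rats against 4, for which the smallest possible p is 0.0286. The p-values are not adjusted. Dbh was 2.61 ± 0.370 times Th in Wistar and 2.35 ± 0.257 times Th in SHR (SD, n = 4 per strain; exact permutation p = 0.314). Its log2 difference of -0.15 was -0.07 without either replicate 1, of Wistar (exact permutation p = 0.571) or of SHR (exact permutation p = 0.600). Slc18a2 was 0.403 ± 0.0536 times Th in Wistar and 0.382 ± 0.0635 times Th in SHR (exact permutation p = 0.600). Both of these ratios overlapped between the strains.

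The Ddc records together were 0.0990 ± 0.00828 times Th in Wistar and 0.0533 ± 0.00347 times Th in SHR (SD, n = 4 per strain), so that Th exceeded Ddc 10.1-fold in Wistar and 18.7-fold in SHR, without overlap (exact permutation p = 0.0286). This sum was added after the data were seen. With the member record of Ddc alone the ratio was 0.00096 ± 0.000432 and 0.00116 ± 0.000332 and the strains overlapped (exact permutation p = 0.571). The ratio of Slc18a1 to Slc18a2 was 0.0118 ± 0.00648 in Wistar and 0.00447 ± 0.00159 in SHR (exact permutation p = 0.0286), but the strains nearly touched, with 0.00615 in the lowest Wistar rat and 0.00613 in the highest SHR. With 0.1 TPM added to both genes the exact permutation p was 0.0571. When single libraries were omitted the ratio passed in 2 of 8 tests, those without Wistar replicate 2 or 3, and in the other 6 the exact permutation p was between 0.0571 and 0.114. With a library left out, only the most extreme regrouping can give a p under 0.05, so that these tests are coarse. The log2 difference stayed between -1.56 and -0.99 in them.

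Gch1 was 0.00312 ± 0.000446 times Th in Wistar and 0.00458 ± 0.00181 times Th in SHR (SD, n = 4 per strain; exact permutation p = 0.0857). Qdpr was 54.3 ± 17.0 times Gch1 in Wistar and 25.5 ± 13.0 times Gch1 in SHR (exact permutation p = 0.0571), and Pts was 5.23 ± 1.16 and 4.94 ± 1.5 times Gch1 (exact permutation p = 0.743). None of these 3 ratios passed with all rats. Without SHR replicate 1 the log2 difference of Qdpr to Gch1 went from -1.21 to -1.50 (exact permutation p = 0.0286), and without Wistar replicate 1 it was -1.38 (exact permutation p = 0.0571). Without SHR replicate 2 that of Gch1 to Th went from 0.49 to 0.63 (exact permutation p = 0.0286). Pnmt was 7.74e-05 ± 2.46e-05 times Dbh in Wistar and 9.09e-05 ± 5.26e-05 times Dbh in SHR (exact permutation p = 0.83).

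**Figure D4:**
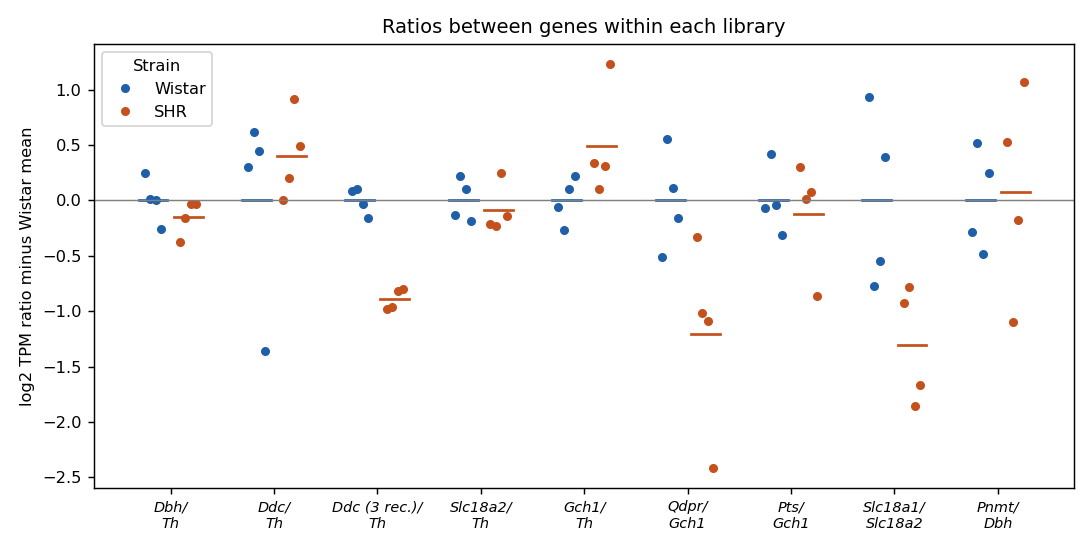
Log2 ratio of TPM between pairs of genes in each library, less the Wistar mean of that ratio. Points are libraries and lines strain means; the strains are apart for Ddc as 3 records against Th, with an SHR mean of -0.89, and nearly touch for Slc18a1 against Slc18a2, with an SHR mean of -1.31.

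The genes that supply cofactors and substrate were examined next, and 0 of their 13 tested records passed in edgeR, 2 at an unadjusted p under 0.05, and 1 in DESeq2. Cyb561, the vesicle membrane protein that passes electrons to the ascorbate used by Dbh, had 115011 ± 8133 normalised counts in the Wistar rats and 125989 ± 10478 in the SHR (SD, n = 4 per strain), a log2 fold change of 0.13 that did not pass. Gchfr, the feedback regulator of Gch1, was at 0.34 on the same scale (edgeR adjusted p = 0.169) with all SHR above all Wistar. Spr, sepiapterin reductase of tetrahydrobiopterin synthesis, varied from 160 to 1624 normalised counts among Wistar rats alone, and its log2 fold change was -0.90 (SE 0.640, edgeR adjusted p = 0.502). Pcbd1, which recycles the cofactor with Qdpr, was at -0.09 and the pyridoxal kinase Pdxk at -0.17. All SHR values of Pdxk were below all Wistar values, but the strains nearly touched, at 907.0 and 907.1 normalised counts. Over all records tested, 4.62% were higher and 5.97% lower in SHR without overlap. The copper transporters Slc31a1 and Atp7a were at -0.08 and 0.11, and the amino acid transporters Slc7a5 and Slc7a8 at 0.04 and 0.10, with their partner Slc3a2 at -0.38 and -0.75 in its 2 records. The median log2 fold change of the list was 0.04, against 0.01 over all records tested and -0.17 over the 8 tested members.

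The proton pump that energises vesicle loading was abundant, led by Atp6v0c with 3090 TPM, Atp6v0b with 1100 TPM and Atp6v0e2 with 970.3 TPM on average over all libraries. Their log2 fold changes were 0.02, 0.13 and -0.12. Of its 17 records tested, 0 passed in edgeR, 2 had an unadjusted p under 0.05, and 2 passed in DESeq2. The 2 with an unadjusted p under 0.05 were Atp6v1c1 at -0.45 (edgeR adjusted p = 0.0648) and Atp6v1b2 at -0.66 (edgeR adjusted p = 0.160). In both, all SHR values were below all Wistar values, as in 5.97% of all records tested. The median of the list was -0.09.

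Among the related hydroxylases and vesicular transporters, 1 of 4 tested records rose and 1 fell. Tph1, tryptophan hydroxylase of serotonin synthesis, which uses the same cofactor, rose by 1.30 on the log2 scale (SE 0.257, edgeR adjusted p = 0.0250), from between 65.5 and 152 normalised counts in Wistar to between 208 and 289 in SHR. Slc18a3, the vesicular acetylcholine transporter, gave 447, 563, 392 and 623 normalised counts in the Wistar rats and 232, 176, 145 and 116 in the SHR. All SHR values were lower, and it fell by 1.60 (SE 0.236, edgeR adjusted p = 0.00557), and it passed in all 8 fits that omitted a library. Tph1 passed in 3 of these 8 fits (edgeR adjusted p from 0.0109 to 0.0796), not without Wistar replicate 1, 3 or 4 or SHR replicate 3 or 4. Tph2, the other tryptophan hydroxylase, was at -0.19 (edgeR adjusted p = 0.651).

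Of the transcription factors that direct noradrenergic differentiation, 1 of 7 tested passed in edgeR, and those that follow did not. Hand2 and Phox2a, which act on Th and Dbh, were at log2 fold changes of -0.04 and 0.16, Gata2 at 0.24, Tfap2b at -0.21 and Isl1 at -0.41. Gata3 was at -1.02 (SE 0.334, edgeR adjusted p = 0.161), with 352 to 1139 normalised counts in Wistar and 317 to 398 in SHR.

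Genes of the dense granules of chromaffin and small intensely fluorescent cells, which neurons of the ganglion also express, were compared because Slc18a1 marks those cells. Of 5 records 1 fell. Chga, chromogranin A, gave 3573, 4356, 4124 and 3831 normalised counts in the Wistar rats and 2788, 2372, 3194 and 2220 in the SHR, all lower, and fell by 0.59 (SE 0.126, edgeR adjusted p = 0.0369). It passed in 2 of the 8 fits that omitted a library, those without Wistar replicate 1 or SHR replicate 3 (edgeR adjusted p from 0.0205 to 0.142), and not when scaled to pan-neuronal genes (edgeR adjusted p = 0.12). Penk, proenkephalin, had 11442, 1446, 2878 and 1113 normalised counts in Wistar and 1118 to 1427 in SHR (edgeR adjusted p = 0.208), so that Wistar replicate 1 was far above the rest. That rat was the highest for Slc18a1 and the lowest of the Wistar rats for Chga. Wistar replicate 4, next for Slc18a1 with 700 normalised counts, had the least Penk. Chgb was at 0.24, Scg2 at -0.19 and Cartpt at -0.27. The summed TPM of the list was 1035 in Wistar replicate 1, 709 to 750 in the other Wistar rats and 562 to 710 in SHR, and its part in the Slc18a1 result was not tested.

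**Figure D5:**
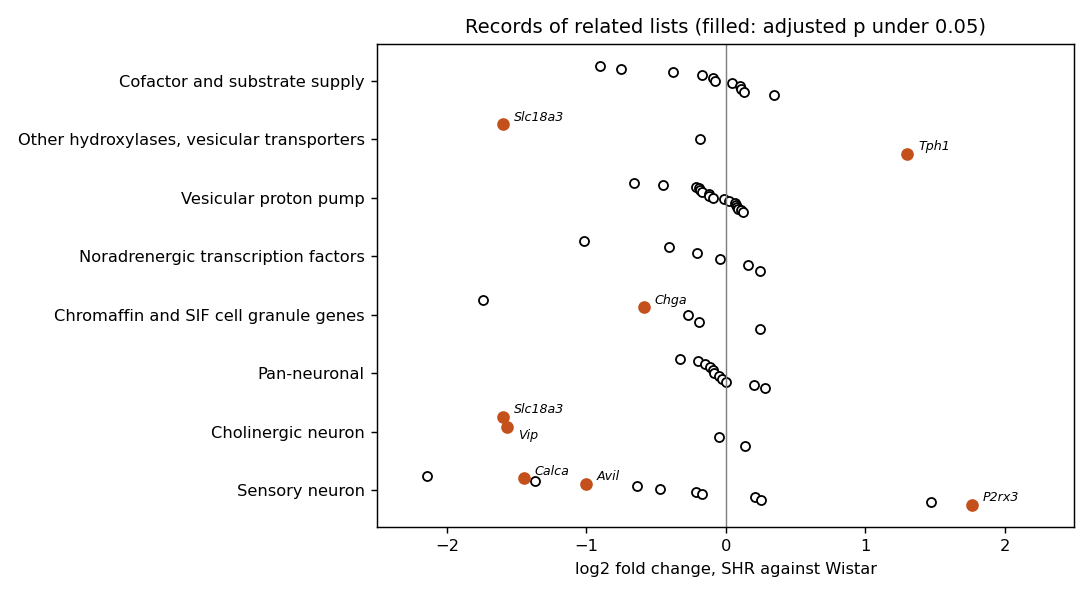
Log2 fold change of SHR against Wistar for records of 8 gene lists that were tested and are reported here, from edgeR's quasi-likelihood test; filled points passed an adjusted p of 0.05 and are named. Tph1 and a P2rx3 record lie to the right and Slc18a3, Vip, Chga, Avil and a Calca record to the left.

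The make-up of the ganglia was followed with marker lists, in which no gene was at 0 in all libraries, although the neuronal marker Rbfox3 averaged only 0.0749 TPM. Pan-neuronal genes summed to 24877 to 26384 TPM in Wistar and 22115 to 26489 TPM in SHR, and 0 of 11 tested records passed in edgeR, 1 at an unadjusted p under 0.05, and 0 in DESeq2. Scaling to these genes in place of TMM gave log2 fold changes of -0.09 for Th, -0.23 for Dbh, -1.55 for Slc18a1 and -0.97 for the Ddc sum. Cholinergic genes summed to 190 to 401 TPM in Wistar and 74.4 to 146 TPM in SHR. Here 2 of 4 fell, Slc18a3 and Vip, the latter with a log2 fold change of -1.57 (edgeR adjusted p = 0.0143, and 0.0521 without SHR replicate 2), while Chat and Slc5a7 were at -0.05 and 0.14. Sensory neuron genes summed to 743 to 907 TPM in Wistar and 364 to 499 TPM in SHR. Most of this sum was Avil, with 597 TPM on average over all libraries. The sum therefore follows this gene and is not a measure of sensory neuron content. Of 12 tested records 1 rose and 2 fell. A P2rx3 record was at 1.77 (edgeR adjusted p = 0.0243), a Calca record at -1.45 (edgeR adjusted p = 0.0352) and Avil at -1.01 (edgeR adjusted p = 0.000769). When single libraries were omitted, these passed in 4, 2 and 8 of 8 fits, and Salmon divides the reads of P2rx3 and of Calca among several records. The other tested Calca record was also lower in SHR, at -1.37 (edgeR adjusted p = 0.0677). The other P2rx3 records were at -2.14 (edgeR adjusted p = 0.368) and 1.47 (edgeR adjusted p = 0.684). A single record therefore does not give the change of the whole gene, which is not given here. The authors, who summed counts by gene, listed P2rx3 among their differentially expressed genes. The sensory channels Scn10a, Scn11a and Trpv1 averaged 0.139, 0.0781 and 0.741 TPM over all libraries. Any part of the make-up of the ganglia in the Ddc and Slc18a1 results was not tested.

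Satellite glia genes summed to 923 to 1663 TPM in Wistar and 868 to 1177 TPM in SHR. Of 11 tested records 1 passed, higher in SHR, an Apoe record, 1 of 5 among which Salmon divided the Apoe reads. It went from a mean of 18.2 normalised counts in Wistar to 2192 in SHR. The most abundant Apoe record went the other way, from 12093 to 6084 (log2 fold change -0.99, edgeR adjusted p = 0.328), so that 1 record does not speak for the gene. Schwann cell genes summed to 1887 to 2276 and 1669 to 2220 TPM, most of it Pmp22 with 1724 TPM on average over all libraries. All 11 tested Schwann records, which belong to 5 genes, had log2 fold changes below 0, as did 49.0% of all records tested, and their median was -0.31. Of them 0 passed in edgeR, 3 had an unadjusted p under 0.05 and 1 passed in DESeq2, and records of 1 gene are not independent. Fibroblast genes summed to 761 to 1314 and 506 to 1574 TPM, and endothelial genes to 30.1 to 52.4 and 23.0 to 44.3 TPM. Macrophage genes summed to 63.8 to 98.6 TPM in Wistar and 29.1 to 128 TPM in SHR, and striated muscle genes to 42.1 to 53.9 and 49.6 to 58.6 TPM. Mast cell genes, listed because mast cells also use Slc18a2, summed to 5.10 to 16.4 and 4.77 to 26.6 TPM, and adipocyte genes to 16.1 to 73.6 and 13.4 to 202 TPM. In the lists from fibroblast to adipocyte genes, 0 records passed in edgeR, 1 had an unadjusted p under 0.05, and 0 passed in DESeq2. The highest fibroblast, macrophage, mast cell and adipocyte sums were all in SHR replicate 1, the library with the least Dbh. The next highest adipocyte sum, 73.6 TPM, was in Wistar replicate 1, the library with the most Dbh. SHR replicate 2 had a macrophage sum of 121 TPM and 323311 normalised counts of Dbh, within the range of the other SHR rats. A link to Dbh was not tested.

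The records that varied most like each member within the strains were found by the correlation of log2 CPM over the 8 libraries after the strain means were subtracted. For Th these were Drg1, B4galt2 and Nfu1, with r from 0.949 to 0.964, and for Dbh they were Ntaq1, Acp2 and Drc3, with r from 0.982 to 0.988. Slc18a2 was nearest to Crmp1, Edc4 and Otof (0.977 to 0.993), and Slc18a1 to Mrpl45, Sh2b1 and Shd (0.953 to 0.959). Qdpr was nearest to Bsg, Msrb2 and C1qtnf4 (0.992 to 0.995), Pts to Pawr, LOC103692984 and Angpt4 (0.962 to 0.994), Gch1 to C1rl, Tpst1 and Ptpn4 (0.944 to 0.976), and the member record of Ddc to Syt6, Pdcl and Numb (0.982 to 0.988). With 8 points and 13659 records such values are the highest of a long list, and they are given as a description. No member was among the nearest 3 of another. Dbh and Qdpr varied in opposite directions (r = -0.896 over the 8 libraries), with replicate 1 of each strain at the ends.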

How the data were processed

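Right stellate ganglia of 4 Wistar rats and 4 SHR were sequenced as paired reads. The authors quantified the reads with Salmon (version 0.8.2 in the submitters' processing notes, after FastQC 0.11.7) against RefSeq transcripts of rn6 with GC and positional bias correction. For each record the authors deposited Salmon's estimated count, left unscaled between libraries, and its TPM. The labels name a stranded mRNA kit, the methods SMARTer amplification. RefSeq's table for GRCr8 paired 17360 of the 18314 records with symbols; its coordinates were used only for the promoters shown.

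The authors' own comparison used DESeq2 on counts summed by gene. Here the estimated counts were rounded and tested with edgeR 4.0.16 in R 4.3.3 (TMM, filterByExpr, glmQLFit, glmQLFTest, Benjamini-Hochberg over 13659 records). SE was obtained from the fold change and the F statistic (|log2 fold change| / √F). DESeq2 1.42.0 was an alternative. TPM was used for levels and ratios. The fits were tested on simulated data. Depth was 25820299 to 35509074 counts. A check for libraries deposited in duplicate found none (chi-square per degree of freedom at least 23.7 within a strain). It covers counting error only, on amplified reads, and says nothing of the spread between rats. Named were all members, the genes of 4 related lists, proton pump genes that passed or were among the 3 most abundant, markers that passed, and the 3 records most like each member. Some genes of these lists are not reported here, although the counts over each list include those that were tested. The members and lists were chosen with earlier results of these data known. Both Ddc records outside the set were added after their values were seen. So were the proton pump genes with an unadjusted p under 0.05 and values of other single markers.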

Additional observations from a re-analysis of the deposited data

Results flagged for a closer look

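In 38 groups of 4 rats, covering the members, the Ddc sum and their ratios, 7 values stood far from the rest of their strain by Dixon's test at 95%, where chance gives about 1 in 20, or 1.9. The groups are not independent, because ratios share genes. For Dbh these were 449800 normalised counts in Wistar replicate 1, the highest of its strain, and 241228 in SHR replicate 1, the lowest. For Qdpr it was 7971 in Wistar replicate 1, the lowest of its strain. The 3 Ddc records summed had 11480 normalised counts in SHR replicate 1, below the other SHR. Gch1 had 248 normalised counts in SHR replicate 4, the highest of the 8 rats, and the ratio of Gch1 to Th was 0.00726 there. The ratio of Slc18a2 to Th was 0.476 in SHR replicate 3, above the other SHR.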

How the results depend on the processing

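With 4 rats a strain, small changes of low records such as Pnmt and Gch1 could not be resolved. The Ddc sum passed in all its alternatives, and Th, Dbh, Gch1, Pts and Slc18a2 passed in none of theirs. The count of 389 records became 780 in DESeq2, 799 with the length offset, 132 with the replicate block and 1068 without both libraries numbered 1 (303 higher, 765 lower). That last setting, the Ddc sum and its fits were chosen after seeing the data. The causes were not tested.

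Members past the threshold numbered 2 in DESeq2 with or without the length offset, 2 after summing by gene, 2 without both libraries numbered 1 and 0 with the replicate block, where Slc18a1 was at -1.52 (edgeR adjusted p = 0.144). Over all records, 2.85% passed in the main fit and 7.79% without both libraries numbered 1, and 2.95% of genes passed after summing. DESeq2 called 780 records, or 799 with the length offset, and the block 132, against 389 in the main fit. Ddc moved to -1.02 when records were summed, and its ratio to Th to -0.89. Qdpr passed in DESeq2 at -0.81 in both forms and without both libraries numbered 1 at -1.22. The log2 ratio of Slc18a1 to Slc18a2 did not pass at -1.28 with the TPM pseudocount, in 6 of 8 tests that left out a library, or at -1.31 with the replicate block, which cannot reach the threshold with 4 pairs. The labels do not state whether the numbers pair the rats. Deviations from the strain means had a mean correlation of -0.152 for the same number and 0.0505 for different ones. The second value follows almost wholly from the first, because deviations within a strain cancel, and neither shows how the rats were handled. With the block the Ddc sum still passed (edgeR adjusted p = 0.0156).

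Cofactor genes past the threshold numbered 1 when scaled to pan-neuronal genes and in both DESeq2 fits, and 4 without both libraries numbered 1. Proton pump genes numbered 1 with pan-neuronal scaling and with the edgeR length offset, and 2 in both DESeq2 fits. Transcription factors numbered 0 with pan-neuronal scaling, either filter and the replicate block, and 2 in both DESeq2 fits and without both libraries numbered 1. Granule genes numbered 0 with pan-neuronal scaling and the replicate block, and related hydroxylases and transporters 1 with the block.

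Leaving out each library gave 237 to 454 records, with 237, 243, 238 and 248 without Wistar replicate 2, 3 or 4 or SHR replicate 4, and 0 to 1 members. The log2 fold change ran from -0.0921 to 0.33 for Ddc, -1.07 to -0.66 for Qdpr and -1.80 to -1.25 for Slc18a1. The log2 ratios ran from -0.0518 to 0.61 for Ddc to Th, 0.25 to 0.63 for Gch1 to Th, -1.50 to -0.81 for Qdpr to Gch1, -0.26 to 0.13 for Pts to Gch1, -1.56 to -0.99 for Slc18a1 to Slc18a2 and -0.25 to 0.47 for Pnmt to Dbh. Counts past the threshold ran from 0 to 1 for cofactor genes, 1 to 2 for related hydroxylases and transporters, 0 to 1 for transcription factors and 0 to 1 for granule genes.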
